A study of Mus musculus with 6 samples.

Results

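Ubiquitin-conjugating enzymes (E2s) were followed in mouse testis as the 37 protein-coding genes of the GENCODE M21 annotation whose symbol is Ube2 and a further letter, out of 55487 gene identifiers in the count table. The list was made by name alone. It holds 1 gene that is not an E2, Ube2cbp (also known as Ube3d), an E2-binding protein. The list also holds the inactive E2 variants Ube2v1 and Ube2v2. E2s of other names, such as Cdc34 and Birc6, are not in it. Polyadenylated RNA came from testes of 6 different mice at postnatal day 19, when the first wave of germ cells is in meiosis. The 3 control mice carry the genotype label control, with no alleles stated, and the 3 dsfb mice carry, per the series title, SFB alleles on both copies of Hormad1 and Hormad2, genes of the meiotic chromosome axis. The labels name neither the strain nor further alleles that the groups may share.

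Ubiquitin is a small protein that is attached to other proteins by a relay of enzymes. An E1 charges ubiquitin, an E2 takes it over on a cysteine in its active site, and an E3 ligase brings the loaded E2 to the substrate. Most E2s carry ubiquitin, and a few carry the related modifiers SUMO, NEDD8 or ISG15. In the male germ line ubiquitin marks histones during meiosis and in haploid cells, and it directs the removal of proteins and organelles in maturing spermatids.

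The libraries held 15335130 to 27707291 counted reads, and each control library (at least 23983373) was deeper than each dsfb library (at most 17306363). Levels are given as CPM (counts scaled to a common library size with TMM factors) and, for comparison between genes, as RPKM, the same value per kilobase of the exons of protein-coding transcripts. Markers of mid to late pachytene spermatocytes summed to 9367 to 13308 CPM in control and 529 to 587 CPM in dsfb, with 12 of 12 lower in dsfb. Spermatid markers summed to 152 to 793 CPM in control and 12.6 to 14.8 CPM in dsfb, with 9 of 9 tested lower. Control replicate 3 held the 793 CPM, against 152 and 172 CPM in replicates 1 and 2. Sertoli cell markers summed to 2917 to 3856 CPM in control and 6887 to 7262 CPM in dsfb (13 of 13 higher). For spermatogonial markers the sums were 248 to 350 and 533 to 603 CPM (7 of 8 higher). In these 4 lists every marker had reads in both groups. Further lists were mixed. Of 6 tested leptotene to zygotene markers 4 were higher in dsfb and 2 did not pass. Higher too were 3 of 6 Leydig cell markers, 2 of 5 of peritubular myoid cells and 2 of 6 of macrophages and blood. The others of these lists did not pass. In whole testis, fewer cells of a type and less RNA per cell cannot be told apart, and the part of these differences in the results below was not tested.

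Of the 37 Ube2 genes 34 had enough reads to be tested. In dsfb 9 of them rose and 16 fell (edgeR quasi-likelihood test, adjusted p under 0.05 over 19826 genes), and 9 did not pass. The share that passed, 73.5%, lay near the 66.9% of all tested genes. Over all genes 30.7% rose and 36.2% fell, against 26.5% and 47.1% of the Ube2 genes. The median log2 fold change was -0.15 over the Ube2 genes and 0.02 over all genes. In CPM the 2 groups did not overlap for 28 of the 34 Ube2 genes, and for 74.7% of all tested genes. Most changes were small: 18 of the 25 that passed were under 2-fold. Those of at least 2-fold were 5 falls, in Ube2d2b, Ube2u, Ube2j1, Ube2s and Ube2m, and 2 rises, in Ube2a and Ube2l6. Over all genes, 26.8% fell and 13.2% rose by as much.

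**Figure D1:**
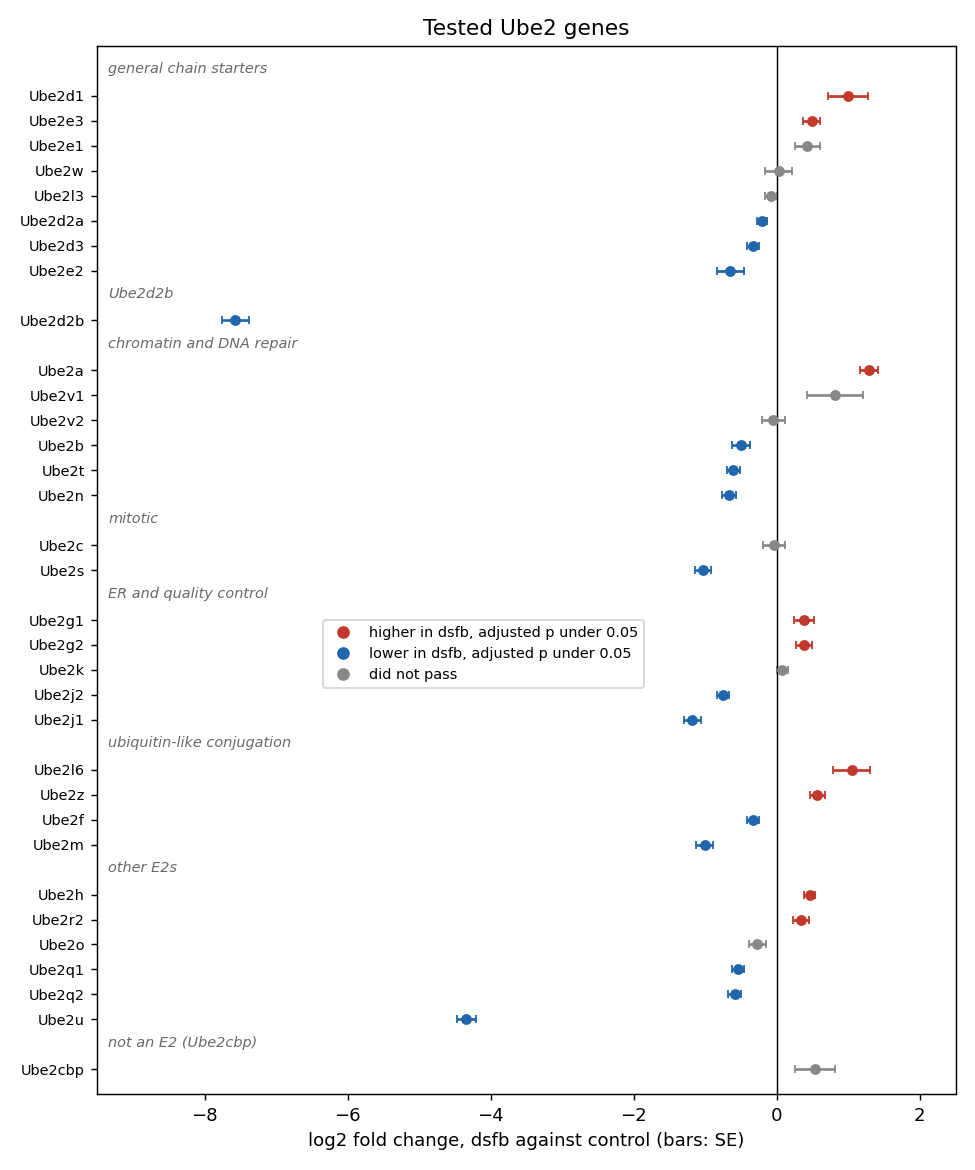
Log2 fold change of 33 of the 34 tested Ube2 genes, dsfb against control (points, with SE as bars), grouped by role. Ube2d2b at -7.57 and Ube2u at -4.34 stand apart from the others, which lie between -1.18 and 1.29.

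The number of rises and falls depended on the scaling between libraries. Of the Ube2 genes that passed, 36.0% were higher in dsfb with TMM, 26.1% with RLE, 56.5% with upper-quartile scaling and 66.7% with library size as the only scaling. Corresponding shares over all genes were 45.9%, 42.0%, 57.2% and 60.9%. The all-gene median shifted by 0.28 with upper-quartile scaling, by 0.40 with library size and by -0.30 without the filter on low counts. The median of the Ube2 genes lay 0.16 below that of all genes with TMM, a gap that a change of scaling alone leaves nearly as it is. With a mean of at least 1 CPM as the filter the gap was -0.23, and with no filter it was 0.00. Across 15 alternatives 12 Ube2 genes had the same direction and the same side of the threshold: Ube2d2b, Ube2u, Ube2j1, Ube2j2, Ube2s, Ube2m and Ube2n as lower, and Ube2a, Ube2l6, Ube2z, Ube2e3 and Ube2h as higher.

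**Figure D2:**
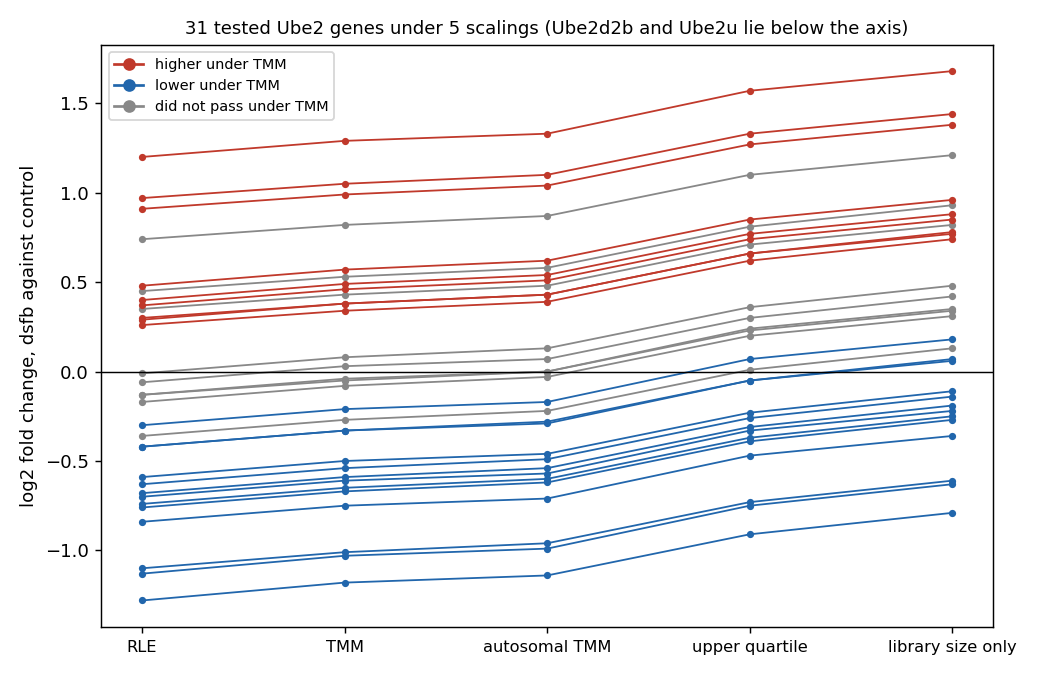
Log2 fold change, dsfb against control, of 31 tested Ube2 genes under 5 ways of scaling the libraries. Each line is 1 gene, coloured by its result under TMM, and all lines shift together, so that genes near 0 cross it under upper-quartile scaling or library size only.

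The largest difference was in the Ube2d group, E2s that work with many RING-type E3 ligases. Ube2d2b (chromosome 5, 107830099 to 107831776, plus strand, mm10) is the only single-exon gene among the 37. Its coding sequence was 92.7% identical to that of the multi-exon Ube2d2a, 81.2% to that of Ube2d3 and 76.6% to that of Ube2d1. No other annotated transcript matched it at 97% identity over 100 bases or more. The stretch of 60 coding bases around the codon for the active-site cysteine is shown to let the intact codon of the copy be compared with 2 of its paralogues and with Ube2a and Ube2b. The codon is in capitals, and it is codon 85 in the Ube2d genes and codon 88 in the other pair.
Ube2d2b (coding bases 223 to 282, chr5:107830707-107830766, plus strand): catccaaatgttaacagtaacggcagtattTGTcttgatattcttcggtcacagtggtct
Ube2d3 (coding bases 223 to 282, chr3:135459999-135460058, plus strand): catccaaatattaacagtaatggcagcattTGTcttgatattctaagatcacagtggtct
Ube2d1 (coding bases 223 to 282, chr10:71258223-71258282, minus strand): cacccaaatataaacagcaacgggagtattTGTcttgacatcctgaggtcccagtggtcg
Ube2a (coding bases 232 to 291, across an intron, plus strand): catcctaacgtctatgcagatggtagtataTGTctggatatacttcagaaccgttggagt
Ube2b (coding bases 232 to 291, across an intron, minus strand): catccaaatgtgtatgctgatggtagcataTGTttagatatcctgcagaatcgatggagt

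Values per library are given in the order of replicates 1, 2 and 3. Control testes had 270, 319 and 324 CPM of Ube2d2b, and dsfb testes had 1.83, 1.09 and 1.84 CPM. Every control library was high and every dsfb library near 0, where 36, 19 and 34 reads remained. The fall was 190-fold (log2 -7.57, SE 0.19, edgeR adjusted p = 1.88e-07), and 4.06% of all tested genes fell as far or further. Ube2d2a was at 117, 118 and 114 CPM in control and 101.5, 96.9 and 103 CPM in dsfb. These groups lay close together without overlapping, and the log2 change of -0.21 (SE 0.07, edgeR adjusted p = 0.0349) was lost without control replicate 2 or any 1 dsfb library (edgeR adjusted p = 0.0787 to 0.142) and with TMM factors from autosomal genes (0.0818), and its direction turned with library size as scaling (0.18) and upper-quartile scaling (0.07). Ube2d2a shares a stretch of 444 bases with Gm9762 at 100% identity, so its reads may be divided. Per length, Ube2d2b was at 3.40, 4 and 4.19 times the level of Ube2d2a in the control libraries and at 0.0266, 0.0166 and 0.0263 times in the dsfb libraries. This ratio within a library does not depend on scaling. It fell by 7.41 on the log2 scale (exact two-sided permutation test, p = 0.1, the smallest that 3 against 3 allows; 3 such ratios were computed).

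Of the summed RPKM of Ube2d1, Ube2d2a, Ube2d2b and Ube2d3, the single-exon gene held 53.0%, 57.2% and 59.2% in control and 0.847%, 0.521% and 0.876% in dsfb. With all annotated exons as length it held 84.2%, 86.4% and 87.6% in control and 3.69%, 2.36% and 3.88% in dsfb. The sum itself, with TMM, was 321 ± 14.9 RPKM in control and 126 ± 2.27 RPKM in dsfb (SD, n = 3). Ube2d3 (-0.33, SE 0.08, edgeR adjusted p = 0.00699) fell from 392.4 ± 8.55 to 311.9 ± 11.5 CPM, a call that was lost with upper-quartile scaling (-0.05) and turned in direction with library size only (0.06). Ube2d1 was the member of the group that rose. It was at 17.5, 14.2 and 8.02 CPM in control and 31.2, 22.8 and 25.2 CPM in dsfb, with control replicate 3 lowest and no overlap (log2 0.99, SE 0.28, edgeR adjusted p = 0.0157). Without dsfb replicate 1 its call was lost (0.86, edgeR adjusted p = 0.0649).

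**Figure D3:**
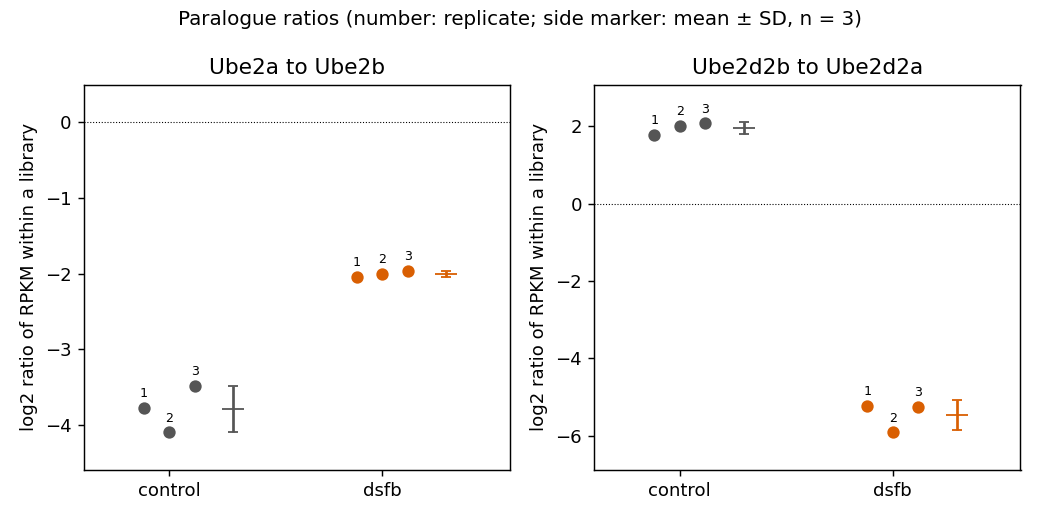
Log2 ratio of RPKM within each library for Ube2a to Ube2b (left) and Ube2d2b to Ube2d2a (right), with mean and SD at the side (n = 3). On the left the dsfb libraries lie near -2.0 and the controls between -4.10 and -3.49; on the right the controls lie near 2 and the dsfb libraries below -5.

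A pair of X-linked genes, Ube2dnl1 and Ube2dnl2, whose coding sequences were 94.6% identical to each other, had too few reads for the test. Ube2dnl1 had 4, 0 and 89 reads in control replicates 1, 2 and 3, and Ube2dnl2 had 9, 16 and 99. Both had 0 reads in all 3 dsfb libraries. Control replicate 3, the library with the highest sum of spermatid markers, held most reads of both genes. With a floor of 3 counts over the dsfb group, Ube2dnl1 was at least 25.6-fold lower and Ube2dnl2 at least 34.2-fold lower in dsfb. Without control replicate 3 these bounds were 1.62 and 10.1. The bounds cover counting error only. Ube2ql1, a further gene with too few reads, had 1 to 8 reads in the control and 5 to 12 in the dsfb libraries.

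Ube2u (chromosome 4, 100478849 to 100550147, plus strand), whose substrates are little known, showed the other large fall. It was at 85.8, 95.5 and 93.2 CPM in control and 4.32, 5.16 and 4.10 CPM in dsfb. The libraries of each group lay close together and the groups were far apart (20.2-fold, log2 -4.34, SE 0.13, edgeR adjusted p = 2.54e-07), and 9.53% of all tested genes fell as far or further. An annotated antisense gene, Ube2uos, had 0 to 4 reads per library. Without Ube2d2b and Ube2u the summed level of the remaining members was lower in dsfb with TMM, at 971 ± 4.90 against 1298 ± 35.9 RPKM (SD, n = 3, exact two-sided permutation p = 0.1). With the same TMM factors, all tested genes summed to 859981 to 878324 CPM in dsfb against 1114242 to 1185346 CPM in control. The sum of the remaining members thus depends on the scaling, and other scalings were not examined for it.

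The promoters of these 2 genes and of Ube2a, the gene with the largest rise among the tested, are shown because they moved furthest (RefSeq, GRCm38.p6, 250 bases before to 50 after the start). Capitals mark matches on either strand to a MYB motif (CAACTG and its forms CAACGG and TAACTG and also TAACGG), a cAMP-response element (TGACGTCA) or its half-site (TGACG), an X-box half-site (GTTGCC), a GC box (GGGCGG) or a TATA box (TATAAA). The half-site is contained in the full element.
Ube2d2b (chr5:107829912-107830211, plus strand): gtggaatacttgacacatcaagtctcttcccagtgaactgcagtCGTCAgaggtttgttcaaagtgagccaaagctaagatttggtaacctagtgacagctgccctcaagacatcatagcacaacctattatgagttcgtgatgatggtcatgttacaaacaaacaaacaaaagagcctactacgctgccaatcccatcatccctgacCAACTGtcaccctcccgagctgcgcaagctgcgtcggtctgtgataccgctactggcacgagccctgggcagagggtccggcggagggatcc
Ube2u (chr4:100478617-100478916, plus strand): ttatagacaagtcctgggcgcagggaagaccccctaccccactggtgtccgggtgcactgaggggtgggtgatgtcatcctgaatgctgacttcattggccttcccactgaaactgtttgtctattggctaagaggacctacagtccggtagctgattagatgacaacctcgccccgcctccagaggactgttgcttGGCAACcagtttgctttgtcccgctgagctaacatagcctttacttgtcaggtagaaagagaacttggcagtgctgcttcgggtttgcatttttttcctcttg
Ube2a (chrX:36874045-36874344, plus strand): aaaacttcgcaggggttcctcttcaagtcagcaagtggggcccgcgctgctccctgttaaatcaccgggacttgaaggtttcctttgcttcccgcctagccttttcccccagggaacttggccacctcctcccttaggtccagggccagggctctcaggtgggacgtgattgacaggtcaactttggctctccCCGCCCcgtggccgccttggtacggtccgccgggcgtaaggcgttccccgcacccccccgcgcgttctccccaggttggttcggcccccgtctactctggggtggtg

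Ube2d2b held 1 MYB match and 1 half-site of the cAMP-response element, motifs that 28.3% and 20.8% of 32851 promoters of the same length hold. Ube2u held 1 X-box half-site (12.5% of promoters) and Ube2a 1 GC box (35.7%). These matches describe the letters and are not binding sites. CpG dinucleotides numbered 11 in the window of Ube2d2b and 7 in that of Ube2u, and 4 and 1 in those of Ube2dnl1 and Ube2dnl2. The median was 7 over all promoters, so that Ube2u was at and Ube2d2b above it. Over the 41 windows of the 30 members with an entry the median was 29, and 4 windows held fewer than 10: those of Ube2u, Ube2dnl1 and Ube2dnl2 and 1 of the 2 of Ube2h.

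Among E2s of chromatin and DNA repair 1 of 6 rose, 3 fell and 2 did not pass (median log2 -0.27). Ube2a and Ube2b are the mammalian forms of yeast Rad6, which ubiquitinates histone H2B and, with Rad18, the sliding clamp PCNA. They encode proteins that were 95.4% identical, while their coding sequences were 77.6% identical, and neither matched another gene at 97% identity. Ube2a (chromosome X, 36873900 to 36884222) was at 14.5, 12.1 and 13.2 CPM in control and 30.6, 34.4 and 31.9 CPM in dsfb. All dsfb libraries were above all controls, a 2.44-fold rise (log2 1.29, SE 0.13, edgeR adjusted p = 0.000111). A rise was called for 74.0% of 766 tested X-linked genes. Ube2b (chromosome 11, 51985497 to 52000762) was at 208.5, 217 and 156 CPM in control and 133, 146 and 132 CPM in dsfb. Control replicate 3 lay nearest to the dsfb libraries, and the fall (log2 -0.50, SE 0.13, edgeR adjusted p = 0.0115) was lost without dsfb replicate 1 or 3 (edgeR adjusted p = 0.0529 and 0.0557), with upper-quartile scaling (-0.23) and with library size only (-0.11).

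Per length, Ube2a stood at 0.0728, 0.0583 and 0.0890 times Ube2b in the control libraries and at 0.241, 0.248 and 0.255 times in the dsfb libraries. The autosomal gene thus remained the higher of the pair in every library. The ratio rose 3.43-fold (log2 1.78, exact two-sided permutation p = 0.1, the smallest possible), and without any 1 library it rose by 1.62 to 1.93 on the log2 scale. Ube2a supplied 6.82% ± 1.33 of the summed RPKM of the pair in control and 19.9% ± 0.441 in dsfb (SD, n = 3).

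Ube2t, the E2 of the Fanconi anaemia pathway, was at 132, 139 and 117.5 CPM in control and 82.8, 87.9 and 83.3 CPM in dsfb. It fell 1.53-fold (log2 -0.61, SE 0.09, edgeR adjusted p = 0.000679), with no overlap, a call lost with library size only (-0.22). Ube2n, which makes lysine-63-linked chains together with an inactive E2 variant, fell 1.59-fold from 166 ± 16.6 to 105 ± 6.30 CPM. Its partners did not pass. Ube2v2 was at 21.4 ± 2.51 CPM in control and 20.7 ± 2.71 CPM in dsfb. Ube2v1 had 7 to 16 reads per library, and 61.5% of its exonic bases are shared with Gm20431, a gene on the same strand that had 0 reads in every library, so the level of Ube2v1 is uncertain. It passed as higher with upper-quartile scaling (1.10) and library size only (1.21). Both partners and Ube2n also have near-identical copies elsewhere.

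**Figure D4:**
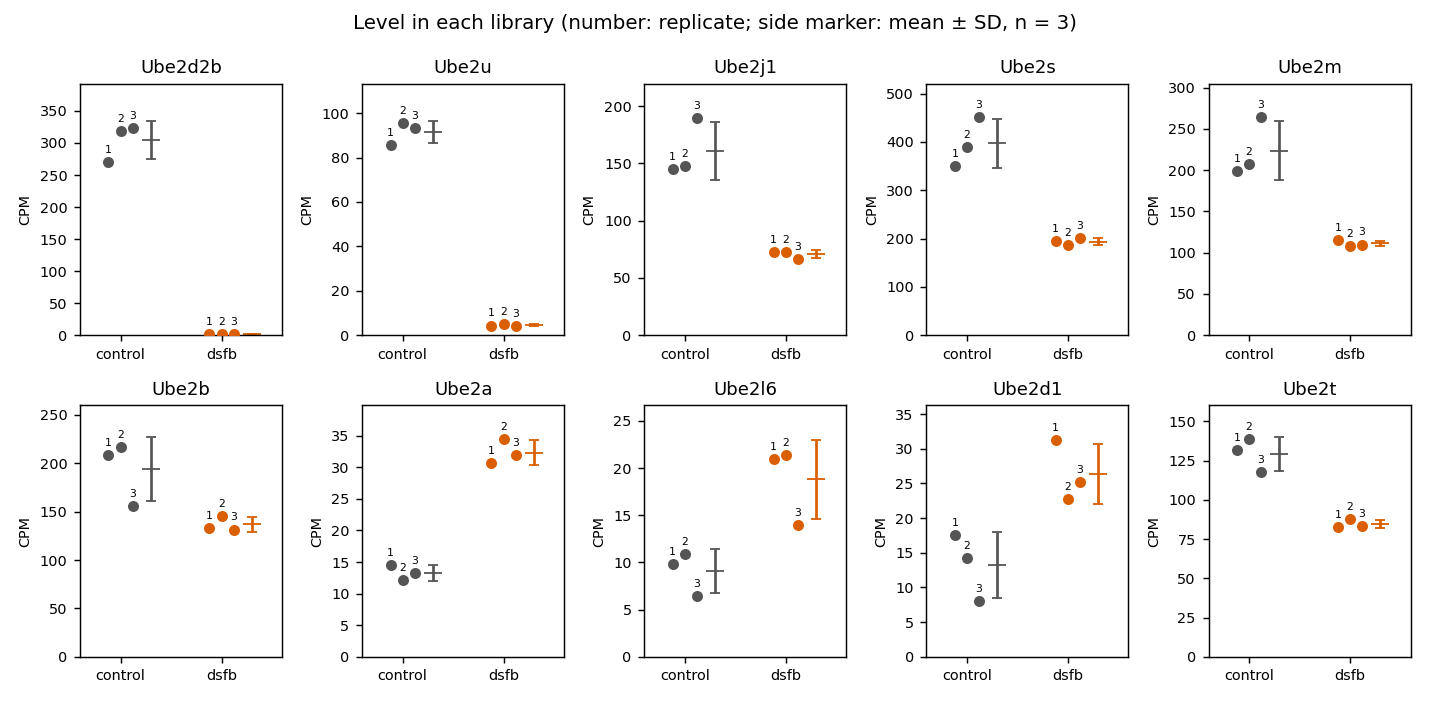
CPM of 10 Ube2 genes in each library (points, numbered by replicate, with mean and SD at the side; every axis starts at 0). Ube2d2b and Ube2u are near 0 in dsfb; Ube2j1, Ube2s, Ube2m, Ube2b and Ube2t are lower in dsfb, and Ube2a, Ube2l6 and Ube2d1 are higher, with no overlap between the groups in any panel.

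The mitotic pair, Ube2c and Ube2s, serves the anaphase-promoting complex, Ube2c by starting chains and Ube2s by extending them. Ube2s (chromosome 7, 4794546 to 4812590, minus strand) had the highest RPKM of the 37 in both groups with the exons of protein-coding transcripts as length, but not with all annotated exons, where Ube2d2b was highest in control and Ube2b in dsfb. It was at 350, 389 and 452 CPM in control and 195, 186 and 200 CPM in dsfb, a 2.05-fold fall without overlap (log2 -1.03, SE 0.11, edgeR adjusted p = 0.000131). With library size only its log2 change was -0.63 and still passed. Ube2c was at 20.8 ± 1.03 and 20.2 ± 3.10 CPM (SD, n = 3) and did not pass (edgeR adjusted p = 0.822). On the opposite strand Ube2c shares 22.8% of its exonic bases with Tnnc2, which had 0 to 2 reads per library. Ube2s shares 3.56% of its exonic bases with Rpl28, also on the opposite strand, and no label says whether strand was used in counting.

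In the group of the endoplasmic reticulum and protein quality control 2 of 5 rose, 2 fell and 1 did not pass (median log2 0.08). The membrane-anchored Ube2j1 and Ube2j2, which act in the degradation of misfolded proteins of the endoplasmic reticulum, both fell. Ube2j1 (chromosome 4, 33031416 to 33052363) was at 145, 148 and 190 CPM in control and 73.0, 72.6 and 66.8 CPM in dsfb, with control replicate 3 highest (2.27-fold, log2 -1.18, SE 0.12, edgeR adjusted p = 0.00011). Ube2j2 fell 1.69-fold from 141 ± 4.15 to 83.5 ± 3.77 CPM. The soluble Ube2g1 and Ube2g2, which act in the same process, rose 1.30-fold each, to 91.2 ± 2.67 and 46.9 ± 2.57 CPM. Neither call held when dsfb replicate 1 or 2, or control replicate 2, was left out (edgeR adjusted p = 0.0524 to 0.0968), nor with RLE (0.30 and 0.29), with DESeq2 or without the filter on low counts. For Ube2g1 it was also lost without dsfb replicate 3 and for Ube2g2 without control replicate 1. Ube2k, which makes lysine-48-linked chains, was at 76.7 ± 1.73 and 81.2 ± 4.65 CPM and did not pass, but passed as higher with upper-quartile scaling (0.36) and library size only (0.48).

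Among E2s of ubiquitin-like modifiers and of the alternative E1, Ube2m and Ube2f fell and Ube2l6 and Ube2z rose. Ube2m (chromosome 7, 13035120 to 13038275, minus strand), the main E2 for NEDD8, a modifier that activates cullin ligases, was at 199, 207.5 and 264.5 CPM in control and 115, 108.5 and 110 CPM in dsfb. It fell 2.01-fold (log2 -1.01, SE 0.12, edgeR adjusted p = 0.000239), with control replicate 3 again highest. Ube2f, the other E2 for NEDD8, fell 1.26-fold, a call lost without dsfb replicate 1 (edgeR adjusted p = 0.0531) and with upper-quartile scaling, and its direction turned with library size only (0.07).

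Ube2l6, the E2 for the interferon-induced modifier ISG15, was at 9.87, 10.9 and 6.44 CPM in control and 21, 21.4 and 14 CPM in dsfb. Replicate 3 was the lowest of each group, and the groups did not overlap (2.07-fold, log2 1.05, SE 0.26, edgeR adjusted p = 0.00822). Ube2z, which takes ubiquitin from the E1 Uba6, rose 1.49-fold from 116 ± 13.1 to 172 ± 8.36 CPM (edgeR adjusted p = 0.00191). The partner E1s of Ube2z and Ube2l6, named after their values were seen, were higher as well. Uba6 was at 141 ± 45.0 CPM in control and 222 ± 31.2 CPM in dsfb (log2 0.66, SE 0.24, edgeR adjusted p = 0.0413), and Uba7, the E1 for ISG15, at 2.03 ± 0.603 and 4.05 ± 0.174 CPM (log2 1.0, SE 0.27, edgeR adjusted p = 0.0135). The modifier gene Isg15 itself did not pass, at 0.671 ± 0.192 and 0.915 ± 0.103 CPM (log2 0.45, edgeR adjusted p = 0.278). Nor did the E1 genes for NEDD8, Nae1 (log2 -0.40, edgeR adjusted p = 0.0755) and Uba3 (log2 0.14, edgeR adjusted p = 0.479).

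Among the remaining general E2s, Ube2e3 rose 1.40-fold from 98.8 ± 15.7 to 139 ± 2.55 CPM, whereas its paralogue Ube2e2 fell 1.57-fold from 21.5 ± 0.901 to 13.8 ± 2.96 CPM. The call for Ube2e2 was lost without dsfb replicate 1 (edgeR adjusted p = 0.0529), with upper-quartile scaling (-0.37) and with library size only (-0.25). Ube2e1, at 19.8 ± 4.06 CPM in control and 26.7 ± 1.67 CPM in dsfb, did not pass (edgeR adjusted p = 0.0554). It passed without control replicate 1 (edgeR adjusted p = 0.0253), with upper-quartile scaling, library size only or autosomal TMM (edgeR adjusted p = 0.00448 to 0.0398) and with limma-voom (adjusted p = 0.0406), and 16.1% of its exonic bases overlap Nkiras1 on the opposite strand. Ube2w, which modifies the amino end of proteins, and Ube2l3, which serves HECT and RING-between-RING ligases, did not pass, although Ube2l3 passed as higher with library size only (0.31). Ube2l3 overlaps Ydjc on the opposite strand over 28.6% of its exonic bases. It also has near-identical copies elsewhere, among them Gm10145 at 99.6% identity over 462 bases.

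Of the other E2s, Ube2h and Ube2r2 rose and Ube2q1, Ube2q2 and Ube2u fell. Ube2h went from 117 ± 4.11 to 160 ± 5.45 CPM (1.37-fold, edgeR adjusted p = 0.00122). Ube2r2, a partner of cullin ligases, rose 1.27-fold, a call lost without control replicate 1 or 2 or dsfb replicate 1 or 2 (edgeR adjusted p = 0.0504 to 0.114) and with RLE (0.26), DESeq2 or no filter on low counts. Ube2q1 and Ube2q2 fell 1.45-fold and 1.5-fold, calls lost with library size only (-0.14 and -0.19). The large hybrid enzyme Ube2o, at 151 ± 22.2 CPM in control and 125 ± 10.6 CPM in dsfb, did not pass (edgeR adjusted p = 0.0864). It passed as lower without control replicate 1 (edgeR adjusted p = 0.0401), with RLE (0.0417), with no filter (0.0386) and with DESeq2 (0.0273), and its direction turned with upper-quartile scaling (0.01) and library size only (0.13). Ube2cbp, the gene that is not an E2, was at 2.65 ± 0.116 CPM in control and 3.84 ± 1.25 CPM in dsfb and did not pass, but passed as higher with upper-quartile scaling (0.81) and library size only (0.93).

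The make-up of the summed level shifted with these changes. All 37 genes together were at 1539 ± 56.2 RPKM in control and 975 ± 4.98 RPKM in dsfb (SD, n = 3). These sums depend on the TMM scaling, whereas shares within a library do not. Ube2d2b held 10.9%, 12.2% and 12.2% of the sum in the control libraries, second after Ube2s, and 0.111%, 0.0666% and 0.113% in dsfb, where it ranked 33. Ube2s held 18.7% ± 1.82 in control and 14.5% ± 0.568 in dsfb, and Ube2m 8.31% ± 1.10 and 6.54% ± 0.187. Each of these differences had an exact two-sided permutation p of 0.1, the smallest possible, and of 0.119 after Benjamini-Hochberg adjustment over the 37 shares. Most of the 37 shares reached these same values, that of Ube2j2 with a change of -0.16 percentage points among them. The p-values thus do not set Ube2d2b, Ube2s and Ube2m apart. The shares of Ube2b (6.73% ± 1.29 and 7.48% ± 0.412, p = 0.6, exact permutation) and Ube2t (7.54% ± 0.771 and 7.78% ± 0.259, p = 0.8, exact permutation) differed by less than the spread between control libraries, although both genes fell in CPM. Ube2z and Ube2e3 more than doubled their shares, to 4.42% ± 0.229 and 4.65% ± 0.109, from 1.89% ± 0.269 and 2.10% ± 0.396. In CPM these genes rose 1.49-fold and 1.40-fold. A share also rises when other members fall: that of Ube2d3 went from 5.41% to 6.78% although Ube2d3 fell in CPM. The shares depend on the transcript length used: with all annotated exons, retained introns included, Ube2d2b held 18.2% in control, the highest share, and 0.157% in dsfb, while Ube2s held 7.76% and 6.26%.

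**Figure D5:**
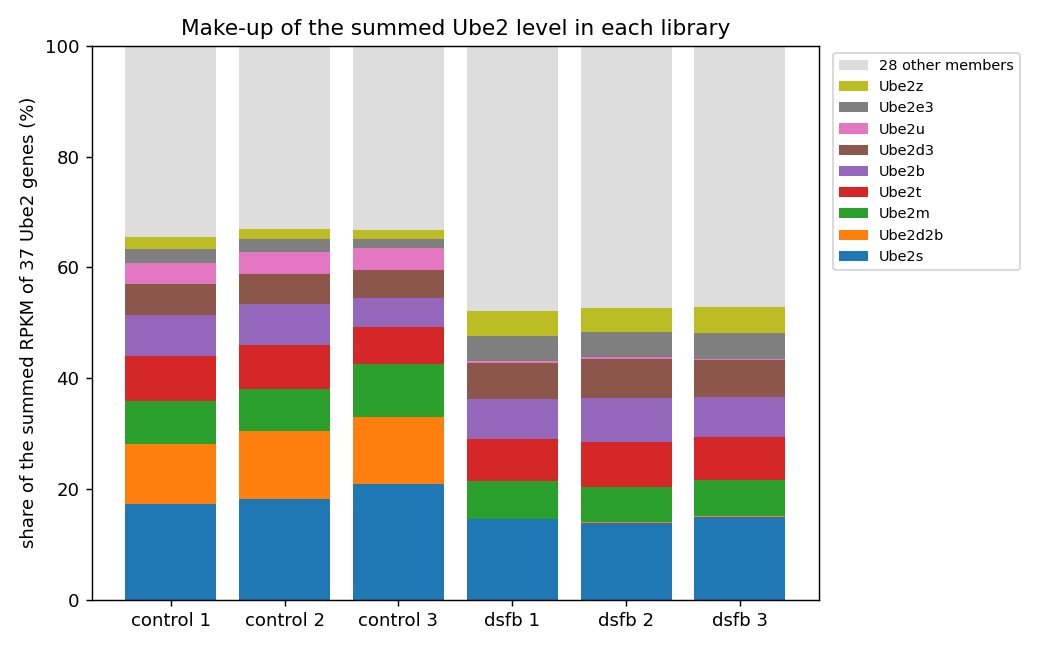
Share of the summed RPKM of 37 Ube2 genes in each of the 6 libraries (stacked bars, percent), with 9 genes drawn singly and the 28 others together. The Ube2d2b band, 10.9% to 12.2% in the control libraries, is at most 0.113% in dsfb.

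The enzymes before and after the E2s moved in both directions. The counts for E1 genes, modifiers and E2-fold genes are those with TMM, under which 30.7% of all tested genes rose and 36.2% fell. Other scalings were not examined for these lists. Of 9 E1 genes 4 rose, 2 fell and 3 did not pass (median log2 0.31). Uba1, the X-linked main E1 for ubiquitin, rose 1.94-fold from 161 ± 23.7 to 313 ± 17.2 CPM, and its Y-linked counterpart Uba1y 2.21-fold from 52.2 ± 9.03 to 115 ± 5.90 CPM. Sae1, a subunit of the SUMO E1, fell 1.48-fold. Of 11 tested genes for ubiquitin and related modifiers 2 rose, 3 fell and 6 did not pass (median -0.14). The polyubiquitin gene Ubb fell 1.66-fold from 1581 ± 105 to 951 ± 12.9 CPM. Of 9 genes with an E2 fold under other names 2 rose, 3 fell and 4 did not pass (median -0.07), with Birc6, a giant E2 that blocks cell death, up 1.63-fold.

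Among listed E3 partners the counts are those with TMM, under which 36.2% of all tested genes fell and 30.7% rose; other scalings were not run for these lists. For chromatin and repair E2s 7 of 14 fell and 4 rose (median log2 -0.28), with Trim37 at 1398 ± 93.4 CPM in control and 243 ± 5.05 CPM in dsfb (5.76-fold) and Rad18, the partner of Ube2a and Ube2b, falling 2.27-fold. Of 9 partners of SUMO conjugation 4 fell and 3 rose (median -0.53), Pias2 falling 3.55-fold. Of 12 cullin-RING genes 7 fell and 2 rose (median -0.44). Cul3 fell 2.19-fold from 543 ± 31.1 to 248 ± 7.13 CPM, and Cul7 rose 2.84-fold. Of 10 ligases of the RING-between-RING type and of the endoplasmic reticulum 6 fell and 1 rose (median -0.32), with Rnf19a falling 3.93-fold from 405 ± 65.2 to 103 ± 3.06 CPM.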

How the data were processed

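Reads of polyadenylated RNA from 6 testis libraries (3 control, 3 dsfb) were deposited as raw counts per gene. Per the submitters' processing notes STAR 2.6.0 and mm10 were used; no label names how reads were counted or whether strand was used. Symbols, positions and lengths came from GENCODE M21 (GRCm38), which holds 55227 of the 55487 identifiers; the other 260 took 0.0238% of reads. Counts were fitted with edgeR 4.0.16 in R 4.3.3 (filterByExpr, TMM, glmQLFit and glmQLFTest with the group as the only term), with Benjamini-Hochberg adjustment over all tested genes. SEs were derived from the F statistic and the fold change. Ratios and shares were compared by exact two-sided permutation of libraries (scipy 1.17.1). Alternatives were other scalings and filters, DESeq2 1.42.0, limma-voom (limma 3.58.1), leaving out each library, and a replicate block; the length behind RPKM was varied after the data had been seen. Libraries of a group always differed by more than sampling noise, with 3.82 to 65 for chi-square per degree of freedom.

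Of the 37 members 16 are uncertain, because they share exonic bases with another gene (9) or match another gene's transcript at 97% identity over at least 100 bases (11, blastn 2.17.0). Of the 12 genes with the same result in every alternative, Ube2s is in the first set, and Ube2j2, Ube2n and Ube2h are in the second. Ube2h matches Gm26526 over 2938 bases at 99.1% identity, and Ube2j2 matches Gm5801 over 780 bases at 99.2%. Ube2d3 and Ube2l3, like Ube2d2a and Ube2v1, are in both sets. Ube2w and Ube2g2 are in the first set, and Ube2g2 shares 6.83% of its exonic bases with Gm49325 on the same strand. Ube2f and Ube2q2 are in the second set, and Ube2q2 matches Gm4895 over 1137 bases at 99% identity. Full values were given, by rule, to members that passed with a log2 change of at least 1 in size, to the paralogue pairs and to the 5 of highest RPKM. The values of 1 member and 1 listed partner gene are not reported here. Members, lists and tests were chosen with earlier results of these data known.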

Additional observations from a re-analysis of the deposited data

How the results depend on the processing

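Leaving out 1 library at a time, 5 to 9 Ube2 genes rose and 12 to 17 fell, against 9 and 16 with all libraries; the lowest counts, 5 and 12, came without dsfb replicate 1. Their median log2 change ranged from -0.22 to -0.14, the Ube2a to Ube2b ratio from 1.62 to 1.93 and the Ube2d2b to Ube2d2a ratio from -7.53 to -7.19. In percentage points, the change in share ranged from -12.1 to -11.5 for Ube2d2b, -4.99 to -3.24 for Ube2s, -2.11 to -1.13 for Ube2m, -0.204 to 0.469 for Ube2t and 0.00658 to 1.15 for Ube2b. With all annotated exons as length it was -18.1 for Ube2d2b and -1.5 for Ube2s. Upper-quartile scaling left 10 falls (median 0.13), and library size only gave 14 rises and 7 falls (median 0.25). With no filter on low counts the median was -0.28.

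Direction turned as follows among the genes reported. With upper-quartile scaling the values were 0.24 (Ube2c), 0.07 (Ube2d2a), 0.20 (Ube2l3), 0.01 (Ube2o) and 0.23 (Ube2v2). With library size only they were 0.35 (Ube2c), 0.18 (Ube2d2a), 0.06 (Ube2d3), 0.07 (Ube2f), 0.31 (Ube2l3), 0.13 (Ube2o) and 0.34 (Ube2v2). Both scalings shift all genes up. The other turns were Ube2c with autosomal TMM (0.00) and without dsfb replicate 2 (0.08), Ube2k with RLE and DESeq2 (-0.01 each), Ube2v2 without dsfb replicate 3 (0.07; leave-one-out range -0.15 to 0.07), and Ube2w with RLE (-0.06), no filter (-0.05), DESeq2 (-0.06) and without control replicate 3 (-0.19) or dsfb replicate 2 (-0.05; leave-one-out range -0.19 to 0.14).

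Deviations from the group means correlated weakly between same-numbered libraries (0.083, 0.102 and 0.143). Between differently numbered libraries the correlations were lower, from -0.127 to 0.065. Whether the replicate numbers pair the libraries cannot be told from these values, and the labels do not say. With the replicate block 10 Ube2 genes rose and 16 fell: Ube2d2a lost its call (edgeR adjusted p = 0.065), and Ube2o (0.0311) and Ube2e1 (0.0346) gained one. The mean log2 ratios, 1.78 and -7.41, cannot change with the block in a balanced design. Depth limits Ube2dnl1, Ube2dnl2, Ube2ql1 and Ube2v1.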

Other observations

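Ube2 genes that are not protein-coding were outside the 37. Ube2d-ps, a transcribed pseudogene on chromosome 11, was at 22.3, 23.0 and 22.3 CPM in control and 13.6, 13.3 and 13.2 CPM in dsfb, and it fell (log2 -0.76, SE 0.13, edgeR adjusted p = 0.0013). Ube2n-ps1 was at 1.36 to 2.09 CPM in control and 1.42 to 2.12 CPM in dsfb and did not pass. Ube2d4, Ube2l3-ps1 and Ube2nl had 0 to 4 reads per library.

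Gm47894, an annotated gene on chromosome 10 that matches Ube2n at 97.8% identity over 274 bases, had 236, 314 and 315 reads in the control libraries and 0, 0 and 1 in the dsfb libraries. Its fall (log2 -9.06, SE 0.53, edgeR adjusted p = 5.86e-06) rests on 1 read in dsfb. It was singled out after its values were seen.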
